A study of Mus musculus with 4 samples.

Results

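The comparison set PD1+ CD8+ T cells from tumours of mice labelled Klf4 cKO against the same gate from control (WT) mice. It asked which transcripts differ in exhausted cells of mice labelled as lacking Klf4, and used 2 of the 4 libraries of the series, 1 per genotype. Both groups were inoculated with 300000 MC38 cells, a mouse colon carcinoma line, and the T cells were taken on day 14, between 10000 and 20000 cells a sample. The Cre driver, the deleted exons, the number or pooling of animals, their age and their strain are not given in the labels. The other 2 libraries are transferred Pmel-I cells in Rag2 KO hosts and enter no value below. RNA was measured by SMART-seq, which amplifies full-length cDNA from little RNA, and levels are in TPM, which divide by transcript length and make each library sum to the same total.

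Klf4 is a zinc finger transcription factor of the Krüppel-like family that binds CACCC-type and GC-rich elements, and in CD8 T cells it is known as a brake on proliferation. Exhausted CD8 T cells arise in tumours under lasting antigen contact, carry PD1 and other inhibitory receptors, and keep part of their killing machinery. Cytolysis runs on perforin, which opens the target membrane, and on granzymes, the proteases that enter through it.

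Since each genotype is 1 library, differences have no replicate behind them, the spread among animals is unknown, and p-values are not given. The depth is unknown, since TPM keeps none. Each value below describes 1 library beside another, and in such bulk samples fewer cells of a type and less RNA per cell cannot be told apart. A difference is log2(TPM + 1) of the library labelled Klf4 cKO minus control, which understates the change of low genes, and the 6609 genes that averaged 5 TPM or more entered. Their median difference was 1.05 log2, or 2.07-fold, so a relative difference is given as the difference minus that median. Genes at least 2-fold apart (1 log2) are counted as higher or lower.

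As deposited, 3438 of the 6609 genes (52%) were at least 2-fold higher in the cKO-labelled library and 616 (9.32%) at least 2-fold lower. Against the median gene the counts were 614 higher (9.29%) and 1591 lower (24.1%). The higher side thus held 84.8% of the calls as deposited and 27.8% relative to the median. The middle 50% of genes had relative differences between -0.95 and 0.57, and 66.6% of genes lay within 2-fold of the median gene. A reference inside T cells gave another scale: Trac, Trbc1 and Trbc2, the constant genes of the T cell receptor, differed by 1.82 log2 on average, or 3.53-fold. A member somewhat higher than the median gene can therefore lie below the receptor genes, and both references are given for the main groups.

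The library totals were shared out differently. Tmsb4x, which encodes the actin-binding peptide thymosin beta 4, took 10.5% of all TPM in control and 6.85% in the cKO-labelled library, and the 10 most abundant genes took 21.7% and 17.8%. Genes whose longest transcript is under 1000 nucleotides took 54.9% and 41.3%, and ribosomal protein genes took 14.2% and 11.1%. Genes at 1 TPM or more numbered 10542 in control and 11937 in the cKO-labelled library.

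**Figure D1:**
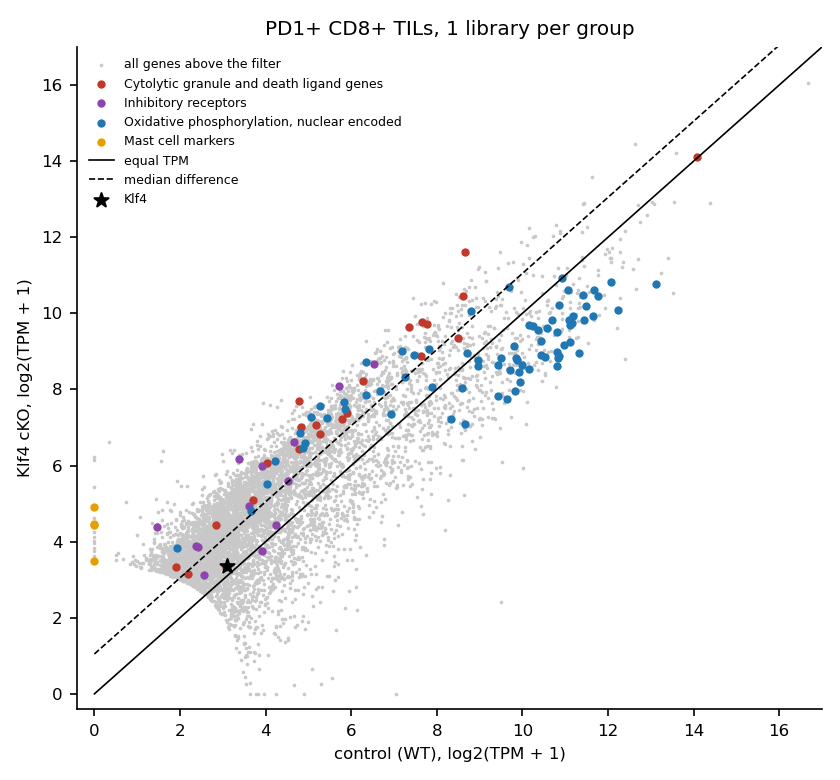
Log2(TPM + 1) of each of the 6609 genes above the filter, control (WT) on the x axis and the library labelled Klf4 cKO on the y axis, with 1 library per axis and colours for 4 gene lists. The line shifted by the median difference of 1.05 runs through the bulk of genes, most oxidative phosphorylation genes lie below it, and mast cell proteases stand at 0 on the control axis.

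The gate and the target gene were looked at first. The CD8 coreceptor chains Cd8a and Cd8b1 were at 136 and 252 TPM in control, and 518 and 1269.7 TPM under the cKO label. Pdcd1, which encodes PD1, was at 91.2 and 409 TPM. Cd4 was at 0.813 and 0.453 TPM, so both libraries showed the markers of the gate and little of the helper coreceptor. Foxp3, the factor of regulatory T cells, was at 4.64 TPM in control against 0.816 TPM under the cKO label.

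Klf4 (mm10, chromosome 4, 55527143 to 55532466, minus strand) stood at 7.52 TPM in control against 9.28 TPM for the cKO label. The difference was 0.27 log2 in the deposited values and -0.78 against the median gene, so its direction turned with the reference. A value over the whole gene can miss the loss of some exons, so this level does not check the genotype, and every direction below rests on the label. Of 21 Krüppel-like and partner factors 7 passed the filter. As deposited 3 of them were higher and 1 lower. Against the median gene Klf10, a TGF-beta-inducible repressor, was the only one beyond 2-fold. It was at 59.1 TPM in control against 10.4 TPM under the cKO label, a relative difference of -3.44. Klf2, the quiescence factor, had 18.7 and 33.6 TPM, and Klf6 65.8 and 194 TPM, relative differences of -0.23 and 0.49.

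Klf4 is known to act on cell cycle inhibitors, so these were read next. Cdkn1b, which encodes p27, was at 12 TPM in control against 8.35 TPM under the cKO label, a relative difference of -1.53. Cdkn1a, which encodes p21, was at 384 and 373 TPM, a relative difference of -1.09, and Ccnd1 at 12.8 and 11.3 TPM, a relative difference of -1.22. As deposited these 3 were within 2-fold, and in the list of inhibitors and D cyclins 4 were higher and 0 lower. That list had 9 of 16 members above the filter, 0 higher and 3 lower against the median gene, with a median of -0.21. Among cell cycle and replication genes, 42 of 47 passed the filter, with 29 higher and 0 lower as deposited, and 2 higher, 1 lower and a median of 0.25 against the median gene. The 2 were Tk1, thymidine kinase, at 22.6 and 98.5 TPM, and Tuba1b, a tubulin, at 60.2 and 267 TPM. The 1 lower was Cenpf, a kinetochore protein, at 8.03 and 3.60 TPM. Mki67 was at 3.84 and 5.13 TPM and Top2a at 15.7 and 18.6 TPM. Relative to the receptor constant genes the cell cycle median was -0.52.

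Cytolytic genes stood mostly above the median gene. Of 24 members 22 passed the filter, with 18 at least 2-fold higher and 0 lower as deposited, and 5 higher and 1 lower against the median gene. The list median was 0.57 against the median gene and -0.20 relative to the receptor constant genes, so its direction turned with the reference. The granzymes differed widely among themselves. Gzmb, whose protease cuts caspases in the target cell, was at 402 TPM in control against 3154 TPM under the cKO label. Gzmk, typical of early exhausted and memory-like cells, had 26.5 and 206 TPM. Their relative differences were 1.92 and 1.87, and they stayed beyond 2-fold against the receptor genes too, at 1.15 and 1.10. Gzmc was at 199 and 877 TPM, relative difference 1.08, whereas Gzma was at 196 and 467 TPM, relative difference 0.20. Gzmf, next to Gzmc in the granzyme cluster, had 359 and 656 TPM, relative difference -0.18. These granzymes are close paralogs whose reads may be split between copies.

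Around the granzymes, Prf1, the perforin gene, was at 58.9 and 166 TPM, a relative difference of 0.43. Ctsw, a cathepsin of killer cells, had 163 and 797 TPM, and Serpinb9, the granzyme B inhibitor that protects the killer cell, 27.4 and 129 TPM, relative differences of 1.23 and 1.15. Nkg7, a granule membrane protein and among the most abundant genes, was at 17171 and 17548 TPM and so lay at -1.02 against the median gene. The summed TPM of the list was 19492 in control and 27183 in the cKO-labelled library, and Nkg7 made up most of both sums.

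Inhibitory receptors had 13 of 18 members above the filter, 10 higher and 0 lower as deposited, 5 higher and 1 lower against the median gene, and a median of 0.47. Cd244a, which encodes the receptor 2B4, had 1.77 TPM in control against 19.9 TPM under the cKO label, relative difference 1.87. Tigit had 9.41 and 71.6 TPM, Ctla4 51.5 and 274 TPM, and Lilrb4a at 14.1 and 62.1 TPM. Relative differences were 1.75 for Tigit, 1.34 for Ctla4, 1.10 for Pdcd1 and 1.02 for Lilrb4a. The receptors most used to grade exhaustion were split. Havcr2, which encodes TIM3, was at 22.1 and 47.6 TPM and Lag3, a class II binding receptor, at 18 and 20.8 TPM, relative differences of 0.03 and -0.85. Cd200 was the 1 lower member, at 14.2 and 12.6 TPM. Against the receptor constant genes the list median was -0.30, Cd244a was the only one of these beyond 2-fold, at 1.10, and Tigit was at 0.98, Ctla4 at 0.57 and Pdcd1 at 0.34.

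Costimulatory receptors had 14 of 16 members above the filter, and all 14 were at least 2-fold higher as deposited, with 1 higher and 0 lower against the median gene and a median of 0.38. Tnfrsf9, the 4-1BB receptor of recently triggered T cells, was at 122 and 558 TPM, relative difference 1.13. Icos was at 65.9 and 252 TPM, Cd28 at 29.9 and 106 TPM and Tnfrsf4, the OX40 receptor, at 209 and 554 TPM. Of 11 NK cell receptors above the filter, Klrc1, which encodes the inhibitory receptor NKG2A, was at 119 and 548 TPM and Klri2 at 1.6 and 15 TPM, both higher. The 2 lower were the signalling adapters Fcer1g, at 1018 and 641 TPM, and Tyrobp, at 433 and 209.8 TPM, relative differences of -1.71 and -2.09. Set against genes of like coding length, only 1 NK receptor gene was lower, and Fcer1g lay at the list median of -0.02. Tyrobp stayed lower there. By that reference 370 of the 5348 genes with a coding length were higher and 883 lower. Myeloid cells also use both adapters, Fcer1g and Tyrobp.

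All 24 members of the T cell receptor list passed the filter, with 15 higher and 0 lower as deposited, 1 higher and 3 lower against the median gene, and a median of 0.25. The CD3 chains differed among themselves. Cd3e was at 149 TPM in control against 389 TPM under the cKO label, relative difference 0.32, while Cd3d was at 2579.5 and 1936 TPM, relative difference -1.46. Cd247, the zeta chain, had 23.7 and 85.6 TPM, relative difference 0.76. Zap70, the kinase that binds it, was at 43.3 and 34.3 TPM, and Thy1, a surface glycoprotein of T cells and of some stromal cells, at 231 and 134 TPM, relative differences of -1.38 and -1.83.

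**Figure D2:**
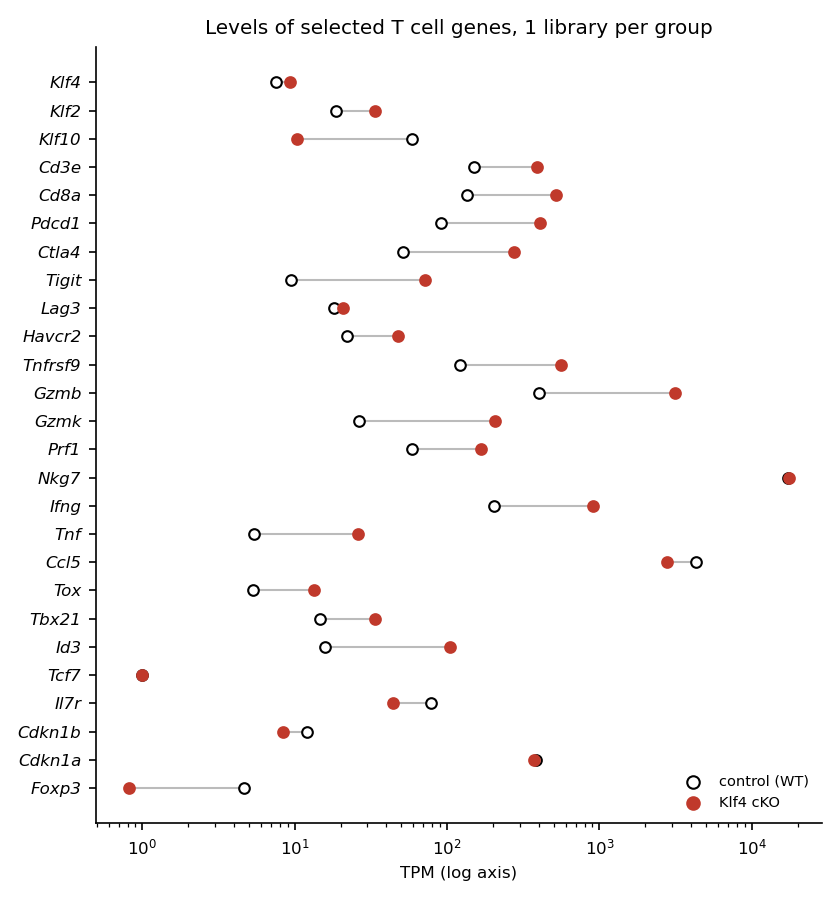
TPM on a log axis for 26 T cell genes, open circles for control (WT) and filled circles for the library labelled Klf4 cKO, 1 library each. Gzmb, Gzmk, Tigit and Id3 are among the genes with the widest gap to the right, Klf10, Il7r and Foxp3 lie to the left, and Nkg7, Tcf7 and Cdkn1a nearly coincide.

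Transcription factors of exhaustion had 17 of 28 members above the filter, 9 higher and 0 lower as deposited. Against the median gene 2 were higher and 3 lower, with a median of 0.10. Tox, the factor tied to exhaustion, was at 5.35 and 13.3 TPM, and Tbx21, the T-bet gene, at 14.6 and 33.7 TPM, relative differences of 0.13 and 0.11. The 2 higher were Id3, an inhibitor of E proteins found in memory and progenitor cells, at 15.8 and 105 TPM, and Litaf, at 52.8 and 246 TPM, relative differences of 1.61 and 1.15. The 3 lower were Irf2 at 28.4 and 19.1 TPM, Batf3 at 13.3 and 10.8 TPM and Rbpj, the Notch effector, at 21.9 and 19.5 TPM. Eomes and Prdm1 were below the filter in mean, at 1.40 and 2.36 TPM and at 2.43 and 2.69 TPM.

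Genes of progenitor and memory cells lay on both sides: 12 of 22 passed the filter, 6 higher and 1 lower as deposited. Against the median gene 4 were higher and 2 lower, with a median of -0.13. Tcf7, the TCF1 gene that defines progenitor exhausted cells, was at 0.988 and 0.989 TPM, below the filter in both libraries. Il7r, the interleukin 7 receptor, was at 78.2 TPM in control against 44.3 TPM under the cKO label, relative difference -1.86, and Dapl1 at 218 and 91.1 TPM, relative difference -2.30. In the other direction Ccr7, a lymph node homing receptor also carried by migratory dendritic cells, was at 21.7 and 121 TPM, and Ly6c1 at 74.2 and 354 TPM, relative differences of 1.38 and 1.19. Slamf6 was at 2.13 and 9.82 TPM, relative difference 0.74.

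Effector cytokines and chemokines split by gene. Of 19 members 15 passed the filter. As deposited 7 were higher and 1 lower, with a median of 0.48, and against the median gene 3 were higher and 7 lower, with a median of -0.57, so the balance turned with the reference. Ifng was at 203 TPM in control against 901 TPM under the cKO label, Tnf at 5.38 and 26.1 TPM and Spp1, which encodes osteopontin, at 173 and 1352 TPM. Their relative differences were 1.10, 1.04 and 1.91. Spp1 is also a macrophage gene. The chemokine Ccl5 was at 4330 and 2785 TPM, Ccl4 at 11972 and 7789 TPM and Ccl1 at 1879 and 725 TPM, relative differences of -1.69, -1.67 and -2.42. Ccl3, the neighbour and paralog of Ccl4, had 1873 and 4430.2 TPM, relative difference 0.19. The lower members were mostly genes of short coding length: of the 8 under 600 coding nucleotides 1 was higher and 6 lower, with a median of -1.34, and of the 7 longer ones 2 were higher and 1 lower, with a median of 0.46. Against genes of like coding length the list median was 0.0093, Ccl5 was at 0.0093 and Ccl4 at 0.026.

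Chemokine receptors stood higher, with 9 of 17 members above the filter, 8 higher as deposited, 2 higher and 0 lower against the median gene, and a median of 0.82. Cxcr6, which holds effector cells near dendritic cells in tumours, was at 156 and 545 TPM, Cxcr3 at 8.43 and 36.3 TPM and Ccr8 at 38.8 and 144 TPM. The 2 beyond 2-fold were Ccr7 and Ccrl2, an atypical chemokine receptor, the latter at 5.37 and 36.7 TPM. Cx3cr1 went the other way, at 14.1 and 16.7 TPM, relative difference -0.82. Relative to the receptor constant genes this median was 0.05. Among genes of residency and adhesion, Rgs1, a brake on chemokine signalling, was at 211 and 1225 TPM and Cd9, a tetraspanin, at 14.7 and 76.9 TPM, relative differences of 1.49 and 1.26. Itgae, the CD103 chain, was below the filter at 1.03 and 0.483 TPM.

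Immediate early and feedback genes had 23 of 25 members above the filter, 19 higher and 0 lower as deposited. Against the median gene 6 were higher and 3 lower, with a median of 0.39. Btg2, among the 3 lower, was at 478 and 450 TPM. Ier3, an early response gene, was at 25.3 TPM in control against 189.6 TPM under the cKO label, relative difference 1.81. Nfkbia, the inhibitor of NF-kappaB, had 178 and 978 TPM, Dusp2, a phosphatase of MAP kinases, 107 and 573 TPM, and Zfp36, a decay factor for cytokine mRNAs, 36.6 and 184 TPM. The relative differences were 1.40, 1.36 and 1.25. Nr4a1, a marker of receptor signalling, was at 16.5 and 37.9 TPM and Egr1 at 17.7 and 58.6 TPM, relative differences of 0.10 and 0.62. In the AP-1 family 7 of 13 were higher and 0 lower as deposited, and 1 higher and 2 lower against the median gene. Jun was at 36.1 and 62.0 TPM and Fos at 61.9 and 209.6 TPM, relative differences of -0.29 and 0.70. In cytokine signalling Jak1 was lower, at 119 and 61.5 TPM, relative difference -1.99, and the Il21r receptor chain higher, at 8.91 and 41.5 TPM, relative difference 1.05. Bbc3, the death gene that encodes PUMA, was at 8.24 and 3.71 TPM and Bcl2, which opposes it, at 21.7 and 19.9 TPM, relative differences of -2.02 and -1.17.

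Of 47 interferon-stimulated genes 32 passed the filter. As deposited 22 were higher and 2 lower, and against the median gene 5 were higher and 4 lower, with a median of 0.19. Set against genes of like coding length, 0 were higher and 3 lower, with a median of 0.17. Irgm1, a GTPase, was at 8.78 and 47.2 TPM, and Irf7 at 16.8 and 73.6 TPM, relative differences of 1.25 and 1.02. Ifi27l2a was at 6658 and 2736 TPM, Slfn2, a quiescence factor of T cells, at 424 and 205 TPM, and Isg15 at 547 and 388 TPM, relative differences of -2.33, -2.09 and -1.54. Class I presentation genes had 23 of 23 above the filter, 18 higher and 0 lower as deposited, 5 higher and 0 lower against the median gene, and a median of 0.62. This median was -0.15 relative to the receptor constant genes, so its direction turned, as it did for costimulatory receptors (-0.39), early response genes (-0.38) and interferon-stimulated genes (-0.58). H2-T23, which encodes Qa-1, the ligand of NKG2A, was at 80.6 and 623 TPM, and H2-K1 at 500.4 and 2315 TPM, relative differences of 1.88 and 1.16. Class I genes are near-identical paralogs, so their reads may be split between them. B2m had 6391 and 22294 TPM, relative difference 0.75.

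**Figure D3:**
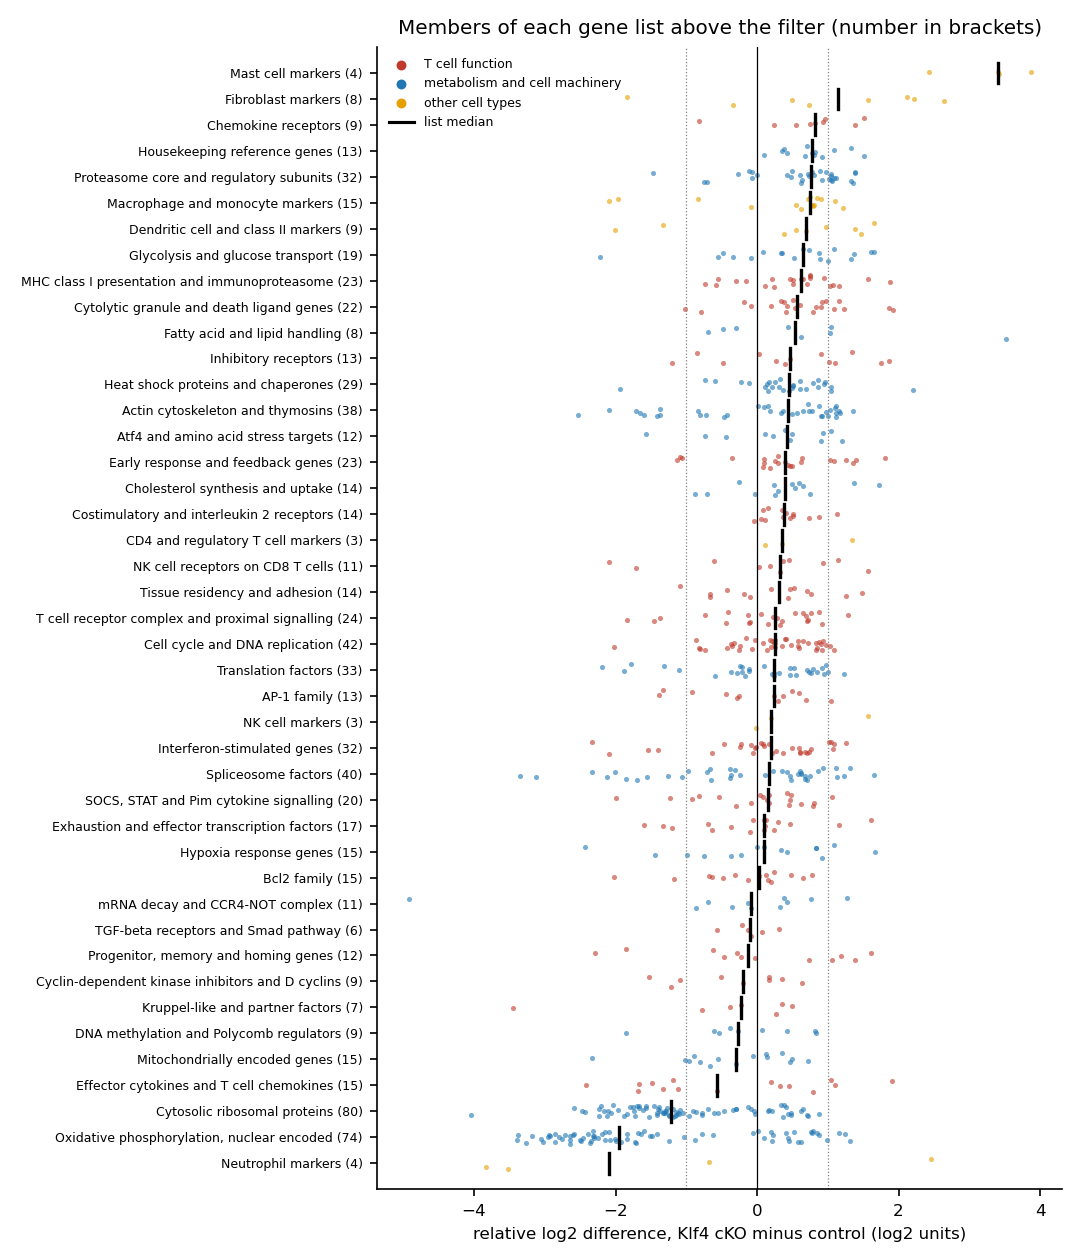
Relative log2 difference of every member above the filter, 1 line per list with at least 3 such members, coloured by class, with the list median as a bar and the median gene at 0. Proteasome, glycolysis, class I and chemokine receptor genes lie mostly to the right, oxidative phosphorylation and ribosomal protein genes mostly to the left, and the lists of T cell function straddle 0.

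Metabolic and housekeeping machinery was read next. All 32 proteasome subunits passed the filter, with 25 higher and 0 lower as deposited. Against the median gene 11 were higher and 1 lower, with a median of 0.76. Psma1 was at 57.4 and 313 TPM, Psmc6 at 13.1 and 74.8 TPM, and the 1 lower, Psmb3, at 2340 and 1752 TPM. Glycolytic genes had 19 of 23 members above the filter, 14 higher and 1 lower as deposited. Against the median gene 6 were higher and 1 lower, with a median of 0.65. Tpi1, triosephosphate isomerase, was at 116 and 758 TPM and Ldha, lactate dehydrogenase, at 281 and 1781 TPM, relative differences of 1.65 and 1.61. Hk2, the inducible hexokinase at the head of the pathway, went the other way, at 9.30 and 3.56 TPM, relative difference -2.22. Housekeeping genes, used as references in qPCR, had a median of 0.78 with 3 of 13 higher, and Actb was at 3140 and 12279 TPM. Relative to the receptor constant genes the medians were -0.01 for the proteasome, -0.12 for glycolysis and 0.01 for housekeeping genes. Set against genes of like coding length, the proteasome had 2 higher and 3 lower, with a median of 0.39. Glycolysis then had 3 higher and 1 lower, with a median of 0.50, and housekeeping genes 1 higher and 0 lower, with 0.49.

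Nuclear genes of oxidative phosphorylation held the most lower genes of the 48 lists read, with 74 of 74 above the filter, 3 higher and 50 lower against the median gene and a median of -1.96. As deposited 20 were higher and 35 lower. Uqcr10, a small subunit of complex III, was at 8869 TPM in control against 1755 TPM under the cKO label, and Ndufb7, of complex I, at 4798 and 1092 TPM. Some large subunits stood above the median gene. Atp5b, the catalytic subunit of ATP synthase, had 80.6 and 418 TPM, and Atp5a1, its partner, 56.6 and 177 TPM, relative differences of 1.31 and 0.58, while Sdha, of complex II, was near it at 0.10. The subunits divided by coding length. Of the 54 members under 600 coding nucleotides 1 was higher and 46 lower, with a median of -2.30, and of the 20 longer members 2 were higher and 4 lower, with a median of 0.55.

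The same division was seen outside this pathway. Of 80 ribosomal protein genes 16 were higher and 11 lower as deposited, and 0 higher and 49 lower against the median gene. The 56 under 600 coding nucleotides had a median of -1.39 against 0.28 for the 24 longer ones. Rps25 was at 11791 and 1473 TPM, relative difference -4.05, and Rplp0, a longer member, at 353 and 1188 TPM, relative difference 0.70. The small spliceosome proteins Snrpf, at 2951 and 598 TPM, and Snrpg, at 1932 and 916 TPM, were lower as well. Over all 5348 protein-coding genes with a known coding length, 67.7% of the 198 genes under 300 nucleotides were lower and 5.05% higher. Between 600 and 900 nucleotides 8.84% were lower and 14.1% higher, and at 3000 or more 32.1% were lower and 0.417% higher. Without the oxidative phosphorylation and ribosomal protein genes, 1136 genes under 600 coding nucleotides had a median of -0.33. The 4095 genes of 600 or more, with the longer members of both lists kept in, had a median of 0.21. Against genes of like coding length, oxidative phosphorylation kept a median of -1.17 with 2 higher and 40 lower, and ribosomal proteins -0.78 with 0 higher and 27 lower. Over all 5348 genes 370 were higher and 883 lower by this reference. By the same reference inhibitory receptors had 3 higher and 1 lower, early response genes 3 and 2, and chemokine receptors 1 and 1. Cytolytic genes had 4 higher and 1 lower, and class I genes 4 and 0. The part of length in these differences was not tested further.

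**Figure D4:**
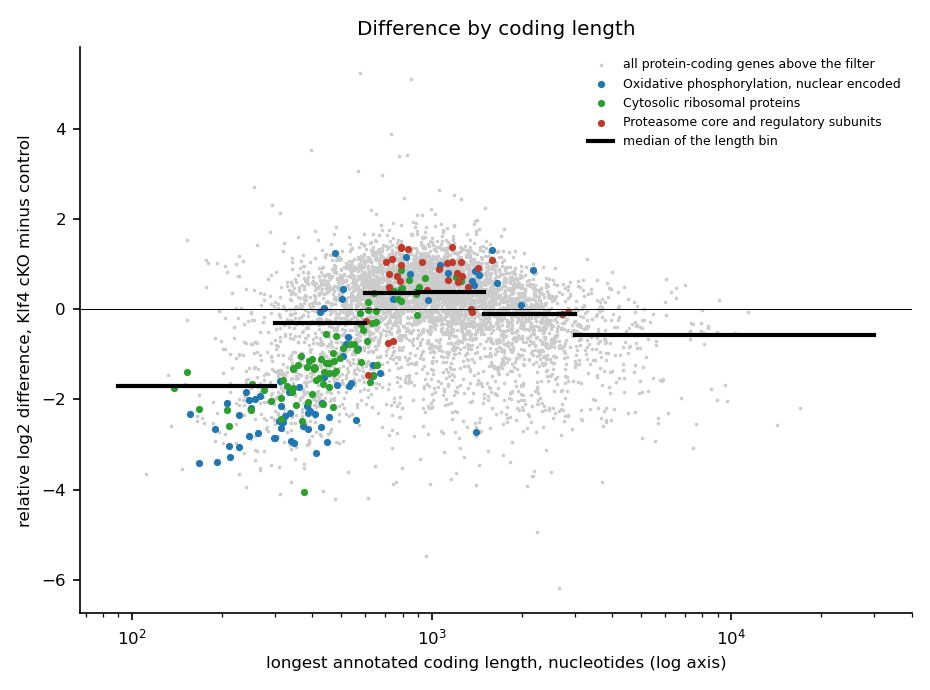
Relative log2 difference of each protein-coding gene above the filter against its longest annotated coding length on a log axis, with bars for the median of each of 6 length bins. The bars stand at -1.69, -0.32, 0.36, 0.38, -0.10 and -0.57 from the shortest to the longest bin, and most oxidative phosphorylation and ribosomal protein genes sit at the short, low end.

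Transcripts made in the mitochondrion lay nearer the median gene than the nuclear subunits did. Of 15 such genes 0 were higher and 2 lower against the median gene, with a median of -0.29. Only 6 of the 15 lay above the median gene, and COX1, at 1717 and 2030 TPM, had a relative difference of -0.81. ATP6 was at 1210 and 4115 TPM and CYTB at 453 and 1298 TPM, relative differences of 0.72 and 0.47. ND6, which lies on the other strand from the rest, was at 1283 and 524 TPM, relative difference -2.34.

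The other lists of cell machinery had medians between -0.27 and 0.53, and their counts below are against the median gene. Heat shock proteins and chaperones had 29 members above the filter, 3 higher and 1 lower, with a median of 0.46. The mitochondrial chaperonin pair was split: Hspd1 was at 20.9 and 92.6 TPM and its short partner Hspe1 at 911 and 493 TPM, relative differences of 1.05 and -1.93. Actin and cytoskeletal genes had 9 of 38 higher, 8 lower and a median of 0.43. Cfl1, the filament-severing cofilin, was at 509 and 2365 TPM, and Gmfg, a small relative of it, at 1169.9 and 569.6 TPM.

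Cholesterol genes had 2 of 14 higher, 0 lower and a median of 0.39, with Fdps, a synthase of the mevalonate pathway, at 34 and 186 TPM. Lipid handling genes had 3 of 8 higher, 0 lower and a median of 0.53, and Plin2, the coat protein of lipid droplets, was at 6.68 and 31.9 TPM. Targets of Atf4, the amino acid stress factor, had 2 of 12 higher, 1 lower and a median of 0.42. Atf4 was at 28.8 and 126 TPM and Psph, of serine synthesis, at 10.7 and 54.6 TPM. Hypoxia genes had 2 of 15 higher, 2 lower and a median of 0.10, with Bnip3l at 16.4 and 75.9 TPM and Higd1a, again a short gene, at 902 and 346 TPM.

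Translation factors had 2 of 33 higher, 5 lower and a median of 0.24. Eif3c, a subunit of the initiation factor eIF3, was at 113 and 67.6 TPM. Spliceosome factors had 5 of 40 higher, 10 lower and a median of 0.17. Regulators of DNA methylation and Polycomb had 0 of 9 higher, 1 lower and a median of -0.27, the 1 being Kdm6b, a histone demethylase, at 12.9 and 6.91 TPM. TGF-beta receptors and Smad genes had 0 of 6 on either side, with a median of -0.10, and Bcl2 family genes 0 of 15 higher, 2 lower and 0.03. Residency genes had a median of 0.32, AP-1 genes 0.23, NK receptors 0.32, SOCS and STAT genes 0.15 and Krüppel-like factors -0.23.

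The widest gaps of single genes were found outside the lists of T cell function. Snx22, a sorting nexin, was at 0.268 TPM in control against 97.9 TPM under the cKO label, relative difference 5.24. Cxcl10, an interferon-induced chemokine, had 19.5 and 210.1 TPM, and Il1b, an inflammatory cytokine of myeloid cells, 16.1 and 194 TPM. Hspb1, a small heat shock protein, was at 2.00 and 27.5 TPM. At the low end Map3k12, a kinase known from neurons, was at 45.7 and 0.342 TPM, relative difference -6.17. Cnot3, a subunit of the CCR4-NOT deadenylase, was at 291 and 18.8 TPM, relative difference -4.93, although the median of the 11 decay genes above the filter was -0.09. Cnot7, a catalytic subunit of the same complex, was at 3.59 and 22 TPM. Hnrnpu, a nuclear RNA-binding protein, had 382 and 89.9 TPM, and Tln1, which links integrins to actin, 47.1 and 16.1 TPM, relative differences of -3.12 and -2.54. Traj21 and Gm7030 were listed at 0 in control and had 73.8 and 70.3 TPM under the cKO label, and Gm46178 was at 131 TPM in control and listed at 0 in the other.

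Transcripts of other cell types were present in both libraries. Their summed TPM is read against the median gene, which was itself 2.07-fold higher under the cKO label. The sums of macrophage, fibroblast, NK and tumour epithelial markers were 1.93, 2.14, 2.43 and 1.26 times those of control, and those of mast cell and endothelial markers 28.8 and 18.1 times. The fibroblast sum includes Thy1, also a T cell gene, which was lower, and the median of that list was 1.15 against the median gene. Summed over 22 markers, macrophage and monocyte transcripts were at 1304 and 2511 TPM, with 2 of 15 higher and 2 lower against the median gene. Lyz2, lysozyme, was at 52.5 and 256 TPM and Cd14 at 12.5 and 58.8 TPM, while Aif1 was at 208 and 109.7 TPM. Class II and dendritic cell markers summed to 304 and 1278 TPM. Of 9 above the filter 3 were higher and 2 lower against the median gene. The class II chain H2-Eb1 was at 27.7 and 185 TPM. The 2 lower were genes of cross-presenting dendritic cells, Xcr1, at 9.82 and 4.58 TPM, and Batf3, and Clec9a was listed at 0 in both. Of 14 mast cell markers 10 were listed at 0 in control and 1 in the cKO-labelled library, where the sum was 104 TPM against 3.61 TPM. The chymase Mcpt2 was listed at 0 and at 29.3 TPM, and the tryptase Tpsb2 at 0 and at 21.1 TPM.

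Markers of other lymphocytes were few or shared with CD8 cells. B cell markers summed to 42.1 and 34.4 TPM, with Ms4a1 listed at 0 in both. The NK cell list summed to 205 and 499 TPM, of which Gzma gave 196 and 467 TPM, and Ncr1 was listed at 0 in control and at 1.68 TPM under the cKO label. The CD4 and regulatory list summed to 279 and 847 TPM, nearly all from Tnfrsf4 and Ctla4. Erythroid and platelet markers summed to 30.5 and 15.2 TPM.

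Fibroblast markers summed to 310 and 661 TPM, of which Thy1 made up 231 and 134 TPM. Against the median gene 4 of 8 were higher and 1, Thy1, lower, with a median of 1.15. Sparc, a matrix glycoprotein, was at 18.4 and 186 TPM and Dcn, the proteoglycan decorin, at 1.71 and 34.0 TPM. Endothelial markers summed to 5.41 and 97.8 TPM. Fabp4, a lipid carrier of endothelium, fat and macrophages, gave 68.8 TPM of the latter, and 8 of 12 endothelial markers were listed at 0 in control. Tumour epithelial markers stood at 11.6 and 14.6 TPM, with Krt8 and Krt19 listed at 0 in both. The neutrophil list summed to 109 and 281 TPM, and of its 4 members above the filter 1 was higher and 2 lower against the median gene. The higher one was Il1b, named above, and Cxcl2 was at 61 and 79 TPM. The lower ones were the calprotectin genes S100a8, at 18.1 and 2.44 TPM, and S100a9, at 10.9 and 0.732 TPM. Ly6g was listed at 0 in both. The part of these cells in the values of Il1b, Spp1, Cxcl10, Ccr7, the class I genes and the early response genes was not tested.

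**Figure D5:**
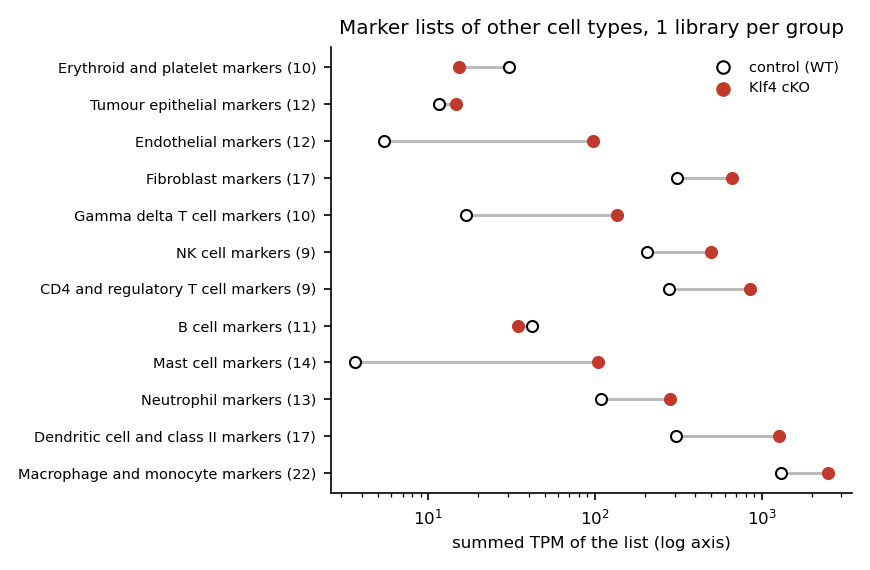
Summed TPM of 12 marker lists of other cell types on a log axis, open circles for control (WT) and filled circles for the library labelled Klf4 cKO, 1 library each, with the number of markers in brackets. Mast cell and endothelial sums lie farthest apart, at 3.61 and 104 TPM and at 5.41 and 97.8 TPM, and only the B cell and the erythroid and platelet sums are lower in the cKO-labelled library.

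The levels of receptor variable segments differed between the libraries, and so did their shares. Of 35 Trbv entries, the variable segments of the beta chain, 12 reached 5 TPM in control and 19 in the cKO-labelled library. Trbv12-2 took the largest share of the summed Trbv level in control, 23.1%, and Trbv16 in the cKO-labelled library, 24.8%. Trbv13-2 was second in both, at 21.6% and 12.9%. Of 128 Trav entries 21 and 39 reached 5 TPM. The summed Trbv level was 271 TPM in control and 1010 TPM under the cKO label, and the Trav sum 326 and 646 TPM. More entries can pass a fixed 5 TPM where the sum is higher, so these counts do not measure the breadth of the repertoire. Tcrg-C2, a gamma chain constant gene that alpha beta T cells can also transcribe, was at 11.6 and 122.5 TPM, whereas Trdc, the delta constant gene, was at 0.338 and 5.61 TPM and Sox13 and Il17a were listed at 0 in both.

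Promoters were read for the element that Klf4 binds. RefSeq windows on GRCm38.p6, from 250 bases before to 50 after a start site, were found for 4636 of the genes above the filter (70.1%), in 5786 windows. CACCC, on either strand, was in 61.0% of them, in 61.7% of the windows of the 390 higher genes and in 57.7% of those of the 1012 lower genes. The longer CCACNCCC, which shares letters with CACCC, was in 22.2% of all these windows, 20% of the windows of higher genes and 19.5% of those of lower genes, and in 17.6% of all windows in the table. Of 57 named genes from the T cell lists that were 2-fold apart and had a window, 12 held CCACNCCC, 6 higher and 6 lower. The shares on both sides were thus no greater than over all genes above the filter for the longer motif.

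The matches of the 2 highest of these 12 genes and the upstream sequence of 3 lower ones are printed to show where the motif lies. The latter are those whose 150 bases before the start site hold a match and no annotated exon of the gene. Id3 and Ccrl2, the 2 highest, do have an annotated exon there. All printed stretches but that of Cenpf lie within the annotated span of their gene, which begins before the start site used here. Sequences run 5′ to 3′ on the gene's strand and capitals mark CCACNCCC or its reverse complement GGGNGTGG. They lie on GRCm38.p6 at chr4:136143725-136143754 (Id3, plus strand, match beginning 86 bases before the start site), chr9:111057297-111057326 (Ccrl2, minus strand, 71 bases), chr15:79347370-79347519 (Maff, plus strand, 90 bases), chr7:16309433-16309582 (Bbc3, plus strand, 40 bases) and chr1:189688087-189688236 (Cenpf, minus strand, 66 bases).
Id3: ccagggcgggcGGGGGTGGacccttggcgg
Ccrl2: gtcagaagccaGGGGGTGGggtggtgcgtc
Maff: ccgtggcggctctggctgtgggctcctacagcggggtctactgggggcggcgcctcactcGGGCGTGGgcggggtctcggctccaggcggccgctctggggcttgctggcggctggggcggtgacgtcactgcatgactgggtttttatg
Bbc3: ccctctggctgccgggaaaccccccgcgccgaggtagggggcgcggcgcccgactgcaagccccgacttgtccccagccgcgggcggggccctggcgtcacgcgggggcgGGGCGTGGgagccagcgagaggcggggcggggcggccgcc
Cenpf: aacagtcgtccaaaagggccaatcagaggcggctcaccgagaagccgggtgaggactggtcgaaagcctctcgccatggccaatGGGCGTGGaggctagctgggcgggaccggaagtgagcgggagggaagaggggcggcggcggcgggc

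Maff, a small Maf factor of the AP-1 list, was at 7.72 TPM in control against 5.90 TPM under the cKO label, relative difference -1.39, and the values of the other 4 are given above. A match describes the letters in the window and is not a binding site.

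Across the scalings, filters and references tried, 71 of the named genes stayed at least 2-fold apart in 1 direction, 21 higher and 50 lower. Of the genes described above, the higher ones included Gzmb, Gzmk, Cd244a, Spp1, Ier3 and H2-T23. The lower ones included Klf10, Il7r, Dapl1, Thy1, Tyrobp, Jak1, Bbc3, Cenpf and Slfn2. Pdcd1, Tigit, Ctla4, Id3 and Ifng kept their direction but were under 2-fold apart against the receptor constant genes. Pdcd1 and Ctla4 were under 2-fold apart against genes of like coding length too. The remaining settings are not listed for these genes. Many named genes, among them the 15 highest and 15 lowest, were picked for the size of this same difference. The counts of 21 and 50 were thus partly set by the pick, and the share over all genes was not counted. The receptor reference also lies above the median gene: against it 71 of all genes above the filter were higher and 2768 lower.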

How the data were processed

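Per the labels' protocols, total RNA came from TRI Reagent and cDNA from the SMART-seq v4 kit. The submitters' processing notes name Trimmomatic, HISAT2, StringTie, edgeR and mm10. For their versions, their roles and the annotation the entry is: not given in the sources used here. The authors deposited 1 table of TPM values per library, with 45777 entries. TPM divides by transcript length and fixes each library's total, so very abundant transcripts push down the rest. The control table had 26 symbols turned into dates. Of these 22 were mapped back and 4 genes were left out, which left 45773. The kit does not mark strand, so overlapping genes cannot be told apart.

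From these values the difference of log2(TPM + 1) was computed over the 6609 genes averaging 5 TPM or more, with Python 3.11.15 and pandas 2.3.3, and tested on simulated data. The pseudocount was 1. Transcript and coding lengths and gene coordinates came from GENCODE on mm10, as the longest annotated form, with a coding length for 5348 genes (80.9%). An exact 0 can be a failed estimate and is given as listed at 0.

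Named genes were Klf4, the first 4 members of each of 48 lists (1131 of 1132 members found), up to 4 more per list with the largest relative difference, and the 15 highest and 15 lowest genes that reach 20 TPM in either library. Small RNAs, predicted genes, receptor segments, mitochondrial and ribosomal protein genes stayed out of the last 2 sets. Gzmf, Ccl3, Litaf, Clec9a, Atp5b, Trbc1, Trbc2 and the receptor segments were picked with their values in view. The members and lists were chosen with earlier results of these data known. The values of 2 list members are not reported here. Alternatives were other pseudocounts, filters, scalings and references, and genes of longer transcripts.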

Additional observations from a re-analysis of the deposited data

How the results depend on the processing

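No paired analysis was possible because each group holds 1 library and the labels carry no replicate numbers. The counts of genes 2-fold apart moved with the filter, the scaling and the reference. Relative to the median gene, 3343 genes were higher without a filter and 1402 at a filter of 1 TPM, against 614. As deposited, 1077 and 941 were lower, against 616. Median of ratios scaling gave 549 higher, against 3438 as deposited, and 1737 lower, and quantile normalization 1126 higher and 1329 lower, as scaled. Relative to the receptor constant genes 71 were higher and 2768 lower. Relative to genes of the same coding-length bin, chosen after seeing the data, 370 were higher and 883 lower, of 5348 genes. Of 48 list medians 10 were beyond 2-fold, and 2 were so under every alternative. Besides oxidative phosphorylation and ribosomal proteins, the 10 were marker lists of other cell types with at most 8 members above the filter. The gamma delta, tumour epithelial and erythroid lists had only 1 such member each. Of 313 named genes above the filter 168 were beyond 2-fold, and 71 were so under every alternative that held them. Many of the 313 were picked for the size of this difference. Signs turned for the B cell markers, to 0.13 without a filter, 0.21 at a filter of 1 TPM and 0.68 with transcripts of at least 1000 nucleotides. They also turned for tumour epithelial markers (0.0025 without a filter), Neutrophil markers (0.79 with the longer transcripts) and Cox4i1 (0.22 under quantile normalization). Against the coding-length bin they turned for Ccl4 (0.026), Ccl5 (0.0093), Nupr1 (0.12) and Tmsb4x (0.035). Fewer genes entered where the filter or the transcript length was stricter, and the cause of the other shifts was not tested. With 1 library per group and no depth, the precision of any single value is unknown.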
